A study of Mus musculus with 9 samples.

Results

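The 54 genes described here act in G2 and mitosis, the last phases of the cell division cycle, and were measured by bulk RNA-seq in the precursors of conventional dendritic cells (pre-cDCs). They were listed by symbol and matched to the annotation of the count table, in which all 54 were found among 51912 genes. The list was chosen from what earlier work on these data had shown: Ccnb1, Cenpf, Ccnf and Knstrn were among the genes with the lowest p between spleen and bone marrow (BM). Values between the tissues are therefore a description of the list, without a test.

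A cell enters mitosis when cyclin-dependent kinase 1 (CDK1) is bound by a B-type cyclin and freed of inhibitory phosphates by CDC25 phosphatases. Condensin then compacts the chromosomes, the kinetochore complexes at each centromere catch spindle microtubules, and the spindle checkpoint holds back the anaphase-promoting complex (APC/C) until all chromosomes are attached. CDC20 then activates the APC/C, which marks securin and cyclin B for destruction, separase opens the cohesin rings, and the cell is cut apart in cytokinesis. Most of these genes are transcribed together late in the cycle, under the DREAM, B-MYB-MuvB and FOXM1 complexes, and pre-cDCs are known as cells that still divide while they travel from BM to peripheral organs.

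The samples were 3 WT and 3 DNGR-1 KO samples of BM pre-cDCs and 1 WT and 2 DNGR-1 KO samples of spleen pre-cDCs. All cells came from mixed chimeras, in which irradiated BL/6 CD45.1/CD45.2 recipients had received an equal mix of WT BL/6 BM (CD45.1) and DNGR-1 KO BM (Clec9aCre/Cre, CD45.2), so WT and KO cells had matured in the same hosts and differed also in the congenic CD45 region. DNGR-1 is the dead-cell receptor encoded by Clec9a, and the KO allele is a Cre insertion into that gene. Each sample held sorted, lineage-negative cells pooled from 2 mice, and the age of the hosts is not given in the labels. For the WT samples the submitted fields conflict, since the source and tissue fields give CD45.1 and the description CD45.2. Nothing in the labels says whether same-numbered WT and KO samples came from the same mice, and p-values measure only the spread between these samples.

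Totals were 17103832 to 23722311 expected counts per sample, so 3 counts, the floor used here, were worth 0.127 to 0.18 CPM (counts scaled to a common library size, with TMM factors); such floors cover counting error only. Clec9a had 905, 1574 and 1766 counts in WT BM, 2459 in WT spleen and 1 in each KO BM sample, and it was at 0 in both KO spleen samples. The 13 pre-cDC markers summed to 4755.5 to 7640.2 CPM in BM and 4099.8 to 5863.6 CPM in spleen, and in neither tissue was any of them at or under the floor. The sums hide unequal single markers: the log2 difference between spleen and BM was negative for 10 and positive for 3. It ran from -1.35 for Irf8 to 1.64 for Batf3. WT BM 1 stood apart from the other BM samples: across the 4922 genes with at least the mean BM level of the lowest of the mitotic genes, its log2 level relative to the other BM samples was lower for longer transcripts (Spearman rho = -0.53 with summed exon length, across genes, which are not independent replicates). In the other 5 BM samples this value was -0.21 to 0.4. Each of these was set against a mean that includes WT BM 1, so the 5 values are not independent of that sample.

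The promoters of 7 of the mitotic genes are shown because the group is known for 2 short elements near the gene start, the cell cycle genes homology region (CHR), bound by MuvB complexes, and the CCAAT box, bound by NF-Y. Each stretch ends at the base before the RefSeq gene start (GRCm38.p6), except that of Pttg1, which runs from 250 to 141 bases before it, and capitals mark the words TTTGAA or TTCGAA (CHR) and CCAAT, read on either strand. The positions are chr4:118437344-118437473 (minus strand) for Cdc20, chr10:69352913-69353042 (minus strand) for Cdk1, chr11:106999526-106999655 (minus strand) for Kpna2, chr11:99024190-99024389 (minus strand) for Top2a, chr15:102296163-102296292 (plus strand) for Espl1, chr15:99651657-99651786 (minus strand) for Racgap1 and chr11:43426122-43426231 (minus strand) for Pttg1.
Cdc20: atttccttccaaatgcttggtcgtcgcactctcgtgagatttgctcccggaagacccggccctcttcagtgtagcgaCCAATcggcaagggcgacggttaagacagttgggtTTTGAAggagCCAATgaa
Cdk1: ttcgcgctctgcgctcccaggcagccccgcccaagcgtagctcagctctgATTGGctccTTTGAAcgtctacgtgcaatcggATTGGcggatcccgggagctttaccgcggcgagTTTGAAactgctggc
Kpna2: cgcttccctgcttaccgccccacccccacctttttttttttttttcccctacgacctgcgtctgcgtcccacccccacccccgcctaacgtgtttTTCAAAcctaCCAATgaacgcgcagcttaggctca
Top2a: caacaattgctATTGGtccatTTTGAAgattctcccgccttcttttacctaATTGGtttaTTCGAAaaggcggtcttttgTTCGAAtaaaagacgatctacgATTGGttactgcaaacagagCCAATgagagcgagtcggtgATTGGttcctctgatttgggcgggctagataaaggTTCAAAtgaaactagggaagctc
Espl1: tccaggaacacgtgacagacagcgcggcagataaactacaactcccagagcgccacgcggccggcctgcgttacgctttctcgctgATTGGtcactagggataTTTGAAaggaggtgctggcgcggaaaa
Racgap1: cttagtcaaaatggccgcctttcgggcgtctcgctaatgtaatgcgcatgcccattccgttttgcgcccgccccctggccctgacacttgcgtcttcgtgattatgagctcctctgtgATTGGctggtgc
Pttg1: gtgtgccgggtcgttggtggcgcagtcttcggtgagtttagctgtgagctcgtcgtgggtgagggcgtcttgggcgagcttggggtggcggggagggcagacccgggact

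In Cdc20 a CHR word at 18 to 13 bases before the start lay between 2 CCAAT words, and in Espl1, which encodes separase, a CCAAT word at 44 to 40 bases was followed by a CHR word at 27 to 22 bases. Top2a held the most matches of the 7, with 4 CHR and 5 CCAAT words in 200 bases. Racgap1 had 1 CCAAT word before the start and its CHR word outside the printed stretch, and Pttg1 had neither word in its whole window. For Pttg1 the RefSeq start lies downstream of the GENCODE start, and the printed stretch lies inside the GENCODE gene (chr11:43420250-43426251, minus strand). Its window did not reach the bases upstream of the GENCODE start, so nothing is read from the absence of both words.

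RefSeq windows of 300 bases (250 before to 50 after the start) were at hand for 44 of the 54 genes, in 47 windows. A CHR word was found in 37 of the 47 windows (78.7%), against 14.6% of 12287 windows of genes tested between the tissues and 19.2% of all 32851 windows. CCAAT was found in 36 (76.6%), against 38.0% and 37.4%, and at least 2 CCAAT words in 24 (51.1%), against 14.6% and 11.7%. Both words stood in 33 windows (70.2%), against 6.01% and 7.52%. An E2F word (TTTCCCGC, TTTCGCGC, TTTGCCGC or TTTGGCGC, either strand) was found in 3 windows (6.38%), against 4.02% and 2.26%. A CCAAT word and a TTTGAA word can share 1 base, and a match is a description of the sequence, not a binding site. The 51 CHR matches were centred at a median of -14.0 bases from the start, and 51.0% of them lay from -60 to 20 bases, against 22.6% of the CHR matches in all windows. The 80 CCAAT matches were centred at a median of -67.0 bases. The 34 genes with a CHR word and the 10 without had median log2 differences between spleen and BM of -4.64 and -5.0.

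**Figure D1:**
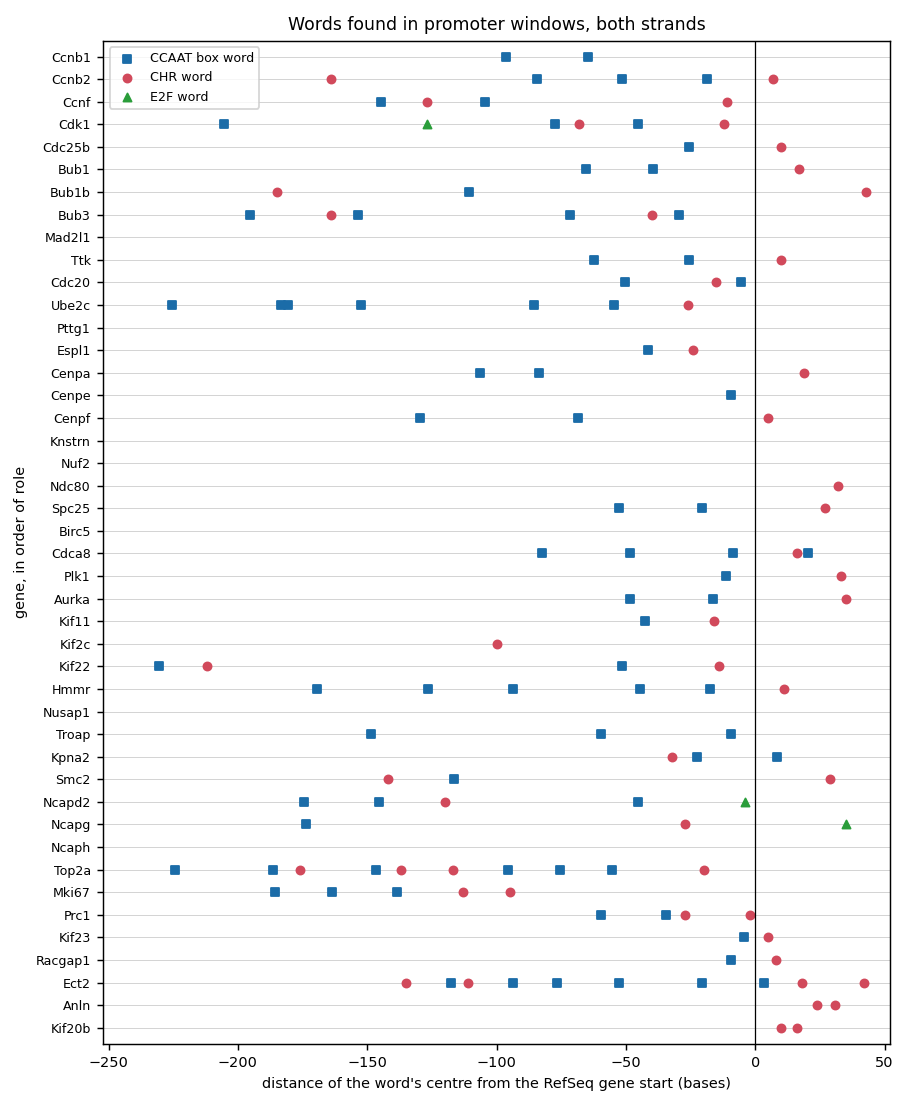
Positions of CHR, CCAAT and E2F words (either strand) in the RefSeq promoter windows of 44 mitotic genes; the x axis is the distance of each word from the gene start in bases, and each row is a gene in order of role. CHR words gather around the start, with a median centre of -14.0 bases, and CCAAT words lie farther upstream, at a median of -67.0 bases.

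In BM all 54 genes were expressed. Their mean level over the 6 BM samples was 37.5 CPM (Pttg1) to 783.6 CPM (Kpna2), no gene was at or under the floor in any BM sample, and all 54 lay above the median of the genes tested when levels were taken per kilobase of summed exon length (median 43.4 CPM per kb, against 4.45 over all genes tested). On that scale 24 of the 54 were in the highest 10% of genes. The order was led by Kpna2 at 272.8, Ccnb2 at 248.4, Cdc20 at 218.2 and Ube2c at 198.7 CPM per kb, and closed by Ttk at 9.68, Espl1 at 8.27 and Cenpf at 7.36 CPM per kb. Summed over the 54 genes the level was 11769.5, 12965.0 and 13872.5 CPM in WT BM and 13076.5, 15720.4 and 14781.7 CPM in KO BM.

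In spleen the sums were 1232.0 CPM in the WT sample and 1218.5 and 1362.5 CPM in the KO samples. The mean sum was thus 10.8-fold higher in BM (13697.6 ± 1409.8 CPM, SD, n = 6) than in spleen (1271.0 ± 79.5 CPM, SD, n = 3). In bulk samples fewer dividing cells and less RNA per cell cannot be told apart. Of the spleen sum, 51.5 to 60.4% came from Pttg1, Smc4, Bub3, Racgap1 and Kif23, which gave 11.4 to 12.5% of the BM sum. These 5 are the genes with the highest spleen-to-BM values, taken after the values were seen, and without them the sum was 10394.6 to 13762.2 CPM in BM and 539.4 to 590.6 CPM in spleen.

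**Figure D2:**
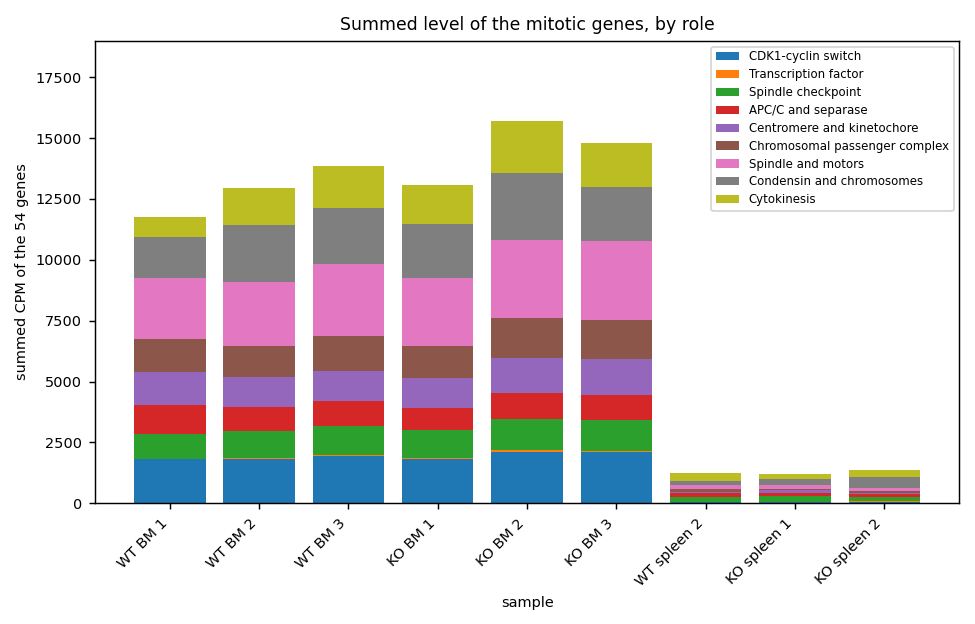
Summed CPM of the 54 mitotic genes in each of the 9 samples, with bars divided by role. The 6 BM samples stand at 11769.5 to 15720.4 CPM and the 3 spleen samples at 1218.5 to 1362.5 CPM.

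In edgeR's quasi-likelihood test over 13468 genes, with genotype as a covariate, 12.3% of all genes passed an adjusted p of 0.05 with lower and 7.28% with higher levels in spleen. Of the 54 genes 49 passed with lower and 1 with higher levels, and Foxm1, Ttk, Spc25 and Ncapd2 did not pass. Since the list was chosen from this contrast, nothing is read from that count. The fitted log2 difference had a median of -4.80, against -0.18 over all genes, and was below -4 for 41 and below -2 for 49 of the 54. Every BM sample was above every spleen sample for 53 genes, against 17.4% of all genes tested, and for Pttg1 every spleen sample was above every BM sample.

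**Figure D3:**
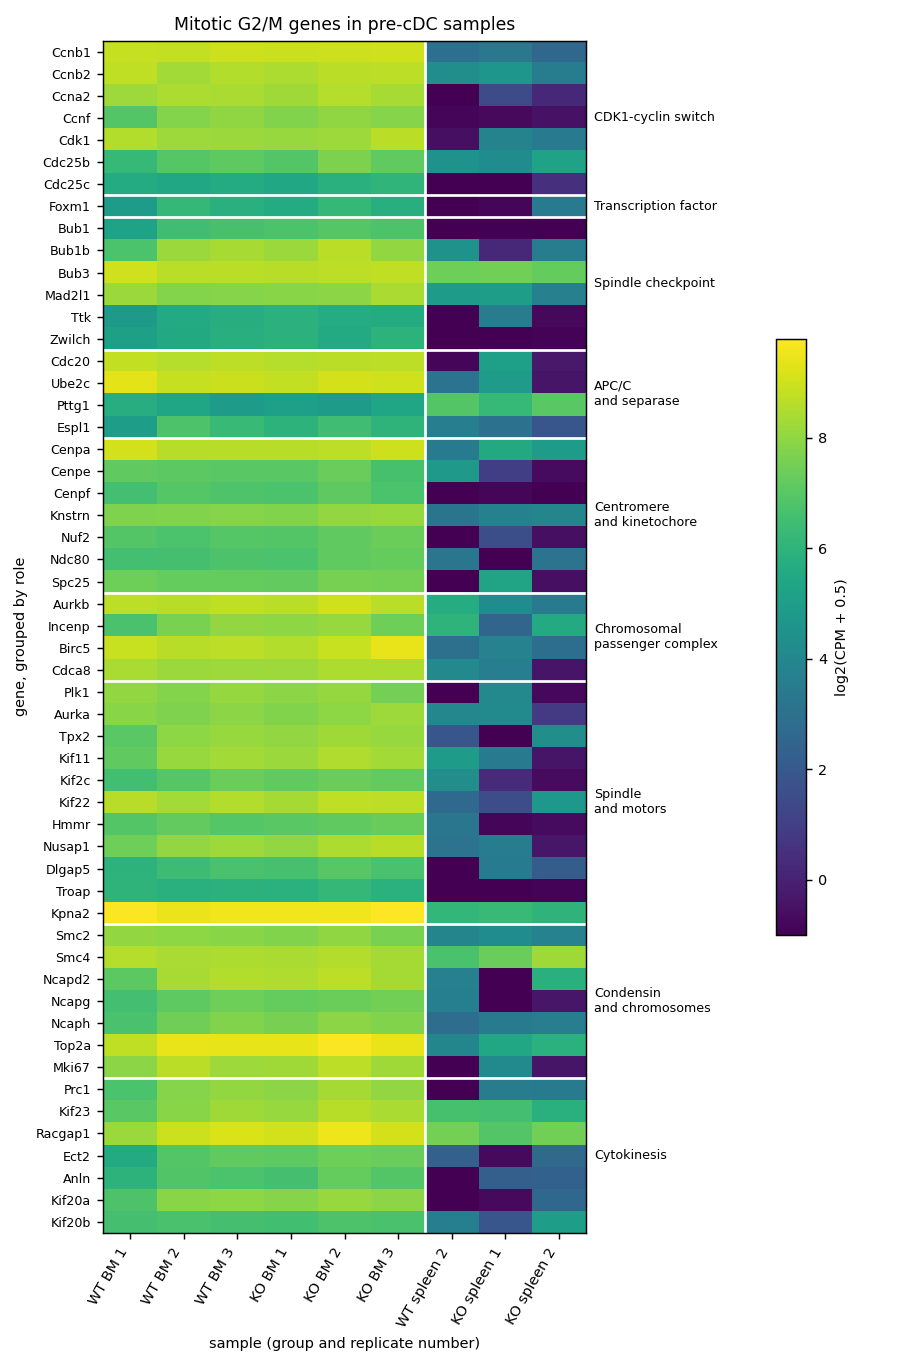
Level of each of the 54 genes, log2(CPM + 0.5), in the 9 samples, with genes in rows grouped by role. In the spleen columns a gene can be near 0 in 1 sample and well above it in another.

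Of the CDK1-cyclin genes, Ccnb1 (ENSMUSG00000041431, chr13:100778650-100786570), the main mitotic cyclin, had the highest BM level. It stood at 462.2, 450.1 and 504.8 CPM in WT BM, 490.5, 498.5 and 512.9 CPM in KO BM, 7.22 CPM in WT spleen and 9.28 and 5.65 CPM in KO spleen. The tissues were far apart, with a mean 65.9-fold higher in BM, and the samples within a tissue close together. Pseudogenes of Ccnb1, Ccnb2, Kif22 and Kpna2 are annotated, and reads shared with them could have been divided in the counting. Its partner kinase Cdk1 was at 278.4 to 409.1 CPM in BM but at 0.179 CPM in WT spleen and 13.5 and 10.2 CPM in KO spleen. Ccnf, a cyclin F-box protein, was at 1, 2 and 5 counts in the spleen samples and at 120.8 to 255.6 CPM in BM. Cdc25b, a phosphatase that starts CDK1 activation, differed least of the 7, at 74.8 to 204.3 CPM in BM and 18.5 to 36.7 CPM in spleen.

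Foxm1 (ENSMUSG00000001517, chr6:128362967-128376146), the transcription factor of late cell cycle genes, had 492, 1403 and 1108 counts in WT BM and 1116, 1474 and 1122 in KO BM. In spleen it had 0 counts in the WT sample, 1 in KO 1 and 244 in KO 2. The single KO 2 value accounts for nearly the whole spleen mean of 3.47 CPM.

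Among the spindle checkpoint genes, Bub3 (ENSMUSG00000066979, chr7:131560222-131571895) and Bub1 (ENSMUSG00000027379, chr2:127801122-127831865) lay at opposite ends. Bub3, which carries checkpoint kinases to the kinetochore, was at 512.0, 412.9 and 411.0 CPM in WT BM, 394.2, 418.8 and 433.3 CPM in KO BM, 168.0 CPM in WT spleen and 179.4 and 151.8 CPM in KO spleen. Bub1, the checkpoint kinase, was at 38.0, 88.0 and 100.2 CPM in WT BM and 104.9, 122.5 and 107.6 CPM in KO BM, and at 0 counts in all 3 spleen samples, which makes it at least 590.8-fold lower in spleen (BM mean against the mean of the 3-count floors). Zwilch, a subunit of the kinetochore complex that recruits dynein, was likewise at the floor in spleen and at least 324.2-fold lower there. These bounds, and those of Cenpf and Troap below, cover counting error only. Bub1b had 367 counts in WT spleen, 12 in KO 1 and 270 in KO 2.

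The APC/C group held the exception. Pttg1 (ENSMUSG00000020415, chr11:43420250-43426251), which encodes securin, the inhibitor of separase, was at 51.8, 39.8 and 29.6 CPM in WT BM and 33.5, 29.7 and 40.8 CPM in KO BM, but at 119.4 CPM in WT spleen and 75.5 and 129.0 CPM in KO spleen. Its spleen mean was 2.88-fold higher than its BM mean. Ube2c (ENSMUSG00000001403, chr2:164769898-164778822), the E2 enzyme of the APC/C, ran the other way, at 658.4, 457.0 and 482.9 CPM in WT BM, 442.1, 550.1 and 509.2 CPM in KO BM, 8.11 CPM in WT spleen and 30.8 and 0.255 CPM in KO spleen. Cdc20 had 1, 591 and 8 counts in WT, KO 1 and KO 2 spleen. Separase itself, Espl1, was at 32.5 to 110.2 CPM in BM and 3.18 to 11.6 CPM in spleen.

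Among the centromere genes Cenpa (ENSMUSG00000029177, chr5:30666777-30674830), the histone H3 variant of centromeres, was at 537.4, 392.7 and 395.0 CPM in WT BM, 392.3, 420.4 and 494.0 CPM in KO BM, 10.1 CPM in WT spleen and 46.3 and 29.8 CPM in KO spleen. Cenpf, a large kinetochore protein that builds up in G2, was at 94.8 to 136.7 CPM in BM and had 1 count in all of spleen, at least 717.6-fold lower. Knstrn, an adaptor of kinetochores, was even within each tissue, at 207.1 to 282.8 CPM and 8.59 to 14.6 CPM. The NDC80 complex genes were not even in spleen: Ndc80 had 149, 0 and 194 counts, Nuf2 0, 45 and 4, and Spc25 0, 696 and 4, in WT, KO 1 and KO 2.

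All 4 chromosomal passenger genes were lower in spleen. Birc5 (ENSMUSG00000017716, chr11:117849251-117855743), which encodes survivin, was at 475.7, 400.8 and 417.2 CPM in WT BM, 378.7, 471.8 and 683.3 CPM in KO BM, 7.39 CPM in WT spleen and 13.1 and 6.96 CPM in KO spleen. The kinase Aurkb was at 390.8 to 522.3 CPM in BM and had 864, 333 and 236 counts in the WT, KO 1 and KO 2 spleen samples. Incenp, the scaffold of the complex, differed least, with means 5.36-fold apart and 1089, 94 and 1127 counts in the spleen samples.

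Of the 11 spindle genes, Kpna2 (ENSMUSG00000018362, chr11:106988629-106999541), an importin that holds spindle factors, was at 849.5, 710.4 and 762.5 CPM in WT BM, 743.7, 750.4 and 885.1 CPM in KO BM, 71.1 CPM in WT spleen and 78.5 and 63.6 CPM in KO spleen. It was the most even of the group in spleen. Plk1, the mitotic polo-like kinase, had 0, 292 and 2 counts in spleen and 187.4 to 268.3 CPM in BM. Troap, a spindle pole protein, had 1 count in all of spleen and was at least 393.5-fold lower there.

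Among the chromosome genes Top2a (ENSMUSG00000020914, chr11:98992943-99024189), which untangles DNA before anaphase, was at 438.3, 689.5 and 673.5 CPM in WT BM, 670.0, 848.7 and 684.0 CPM in KO BM, 14.8 CPM in WT spleen and 43.7 and 59.2 CPM in KO spleen. Smc4 and Smc2, the paired ATPases of condensin, differed in how far apart the tissues were: Smc4 was 1.87-fold and Smc2 15.3-fold higher in BM by their means. Smc4 in KO spleen 2 (303.5 CPM) came close to the lowest BM sample (318.3 CPM). The non-SMC subunit Ncapd2 had 212, 0 and 1362 counts in spleen. Mki67, the proliferation marker, had 0, 308 and 6.

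In the cytokinesis group Racgap1 (ENSMUSG00000023015, chr15:99620496-99651656) and Kif23, which together form centralspindlin, were the least different. Racgap1 was at 290.7, 496.0 and 574.5 CPM in WT BM, 536.4, 731.7 and 550.5 CPM in KO BM, 184.3 CPM in WT spleen and 119.9 and 181.8 CPM in KO spleen, with means 3.27-fold apart. Kif23 means were 3.37-fold apart. Ect2, the exchange factor that centralspindlin activates, had 75, 2 and 145 counts in the WT, KO 1 and KO 2 spleen samples. Kif20a, a kinesin of the midzone, had 0, 2 and 134 counts there and was at 110.5 to 281.1 CPM in BM, so its spleen level came almost wholly from KO spleen 2.

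The spleen samples agreed in the sum of the 54 genes but not in single genes. At or under 3 counts were 19 genes in WT spleen 2, 14 in KO spleen 1 and 9 in KO spleen 2 (35.2, 25.9 and 16.7% of the list), against 3.03, 1.81 and 1.83% of the 4922 genes of at least that BM level. In 27 of the 54 at least 1 spleen sample was at the floor, and in 4 (Bub1, Zwilch, Cenpf and Troap) all 3 were. Between the 2 KO spleen samples the median absolute log2 difference, on log2(CPM + 0.5), was 1.12 over the list and 0.46 over the 4922 genes, and 28 of 54 genes (51.9%) were over 2-fold apart, against 19.6%. Of the 28, 17 were higher in KO spleen 1 and 11 in KO spleen 2. In BM the same measure between replicates was 0.17 to 0.41 over the list and 0.19 to 0.51 over the 4922 genes. Marker sums of other cells also differed between the tissues, higher in spleen for T cells, NK cells, erythroid cells and macrophages and lower there for neutrophils. The 8 T cell markers summed to 731.6 to 3212.6 CPM in spleen against 2.1 to 14.0 CPM in BM (all 8 tested higher in spleen), and the 6 erythroid markers to 5738.1 to 34152.3 CPM against 90.0 to 557.4 CPM, the highest in KO spleen 1. The 6 NK cell markers summed to 756.8 to 1774.7 CPM against 63.5 to 151.0 CPM and the 7 macrophage markers to 176.3 to 537.3 CPM against 8.16 to 21.0 CPM, while the 6 B cell markers summed to 34.8 to 47.1 CPM against 37.4 to 58.6 CPM. The 7 neutrophil markers, Mpo foremost, summed to 966.1 to 2734.2 CPM in BM and 0.337 to 4.95 CPM in spleen, where each sample had 6 of the 7 at or under the floor; Mpo had 1, 0 and 17 counts there and Prtn3 82, 6 and 3. The part of these cells in the difference between tissues was not tested.

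**Figure D4:**
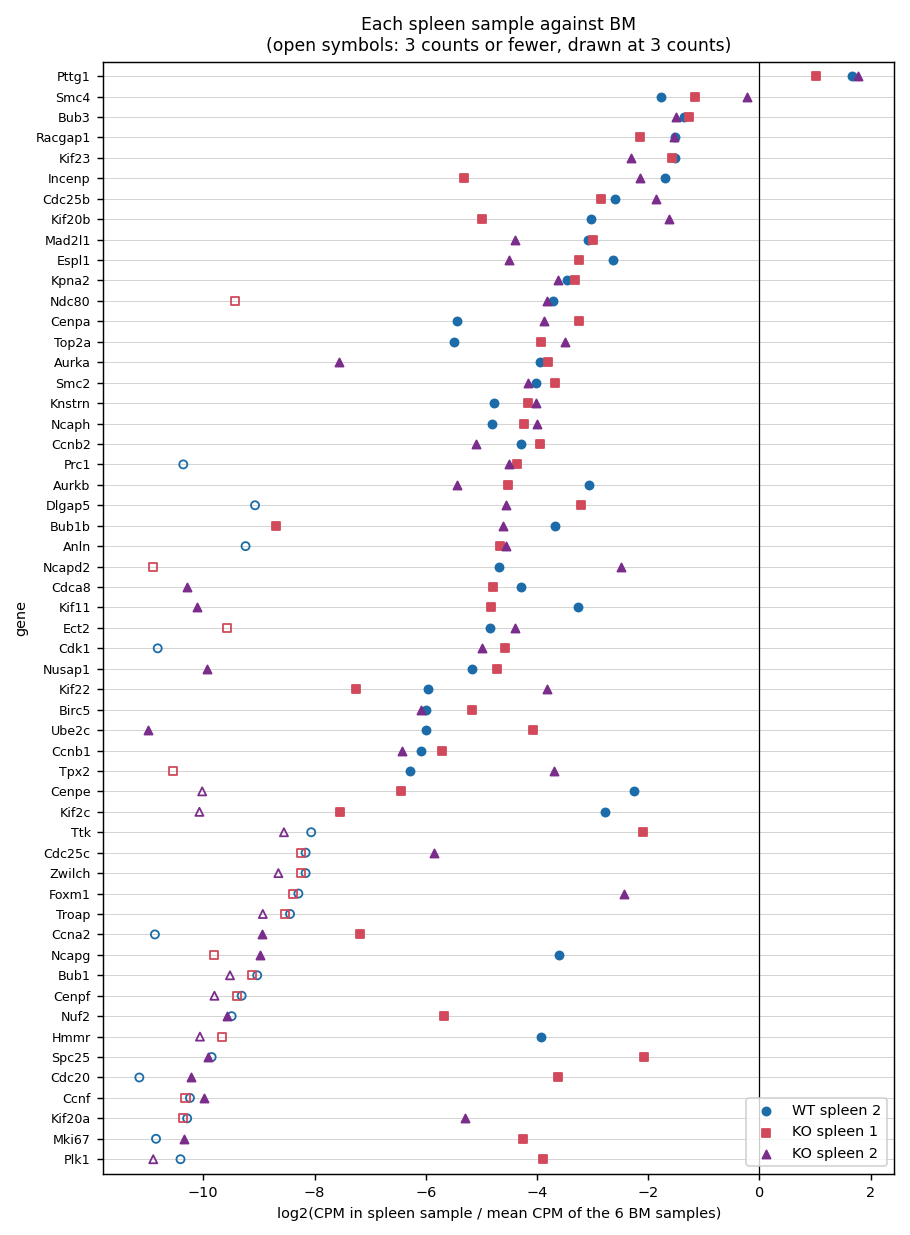
Log2 ratio of each spleen sample to the mean of the 6 BM samples for the 54 genes, ordered by the median of the 3 samples; open symbols have 3 counts or fewer and are drawn at 3 counts. Pttg1 lies to the right of 0 in all 3 samples, the genes below it lie to the left, and in the lower part of the plot the 3 samples of a gene are often far apart.

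Other genes of the same machinery, from lists made with earlier results known, are set beside these, and their counts stand against the 12.3% of all genes that were lower and the 7.28% that were higher in spleen. Of 24 further G2/M genes 17 were lower in spleen and 0 higher (median log2 difference -3.23), from Pimreg at -5.87 to Jpt1 at -0.72. Of 29 further kinetochore genes 19 were lower and 0 higher (median -3.39). Ska3 was at 0 counts in all 3 spleen samples and at 72.3 CPM in BM, and Zw10, at -0.31, did not pass. Of 15 genes of the core APC/C and its coactivator Fzr1 6 were lower and 0 higher (median -0.63), from Cdc23 at -2.18 to Cdc16 at 0.23.

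Of 15 cohesin genes 5 were lower and 1 higher in spleen (median -0.92). Sgo2a, a shugoshin that guards centromeric cohesin, was at 0 counts in spleen, and Esco1, a cohesin acetyltransferase, had the highest value of the list (log2 difference 1.67 ± 0.23, SE). The 1 of 15 higher is near the share over all genes. Condensin II had 2 of 3 genes lower (Ncapg2 at -3.44 did not pass, and Ncaph2 at -0.97 passed). Of 10 regulators of mitotic entry 3 were lower and 0 higher (median -3.03). Mastl, the Greatwall kinase, was at 0 in spleen, while its substrate Ensa had 0.41 and did not pass. Of 12 DREAM and MuvB genes 3 were lower and 0 higher (median -1.08). The lowest was Mybl2, the B-MYB that joins MuvB in G2, at -5.63, and the highest Rbl2, a pocket protein of DREAM, at 1.04, which did not pass.

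Whether loss of DNGR-1 moved the mitotic genes in BM was asked over the 6 BM samples. Of 13016 genes tested 4 passed (0.0307%), and none of the 54 did. With edgeR 0 of the 54 had an unadjusted p under 0.05, with DESeq2 0 and with limma-voom 1. The lowest unadjusted p was 0.0777, and adjusted p-values ran from 0.861 to 0.992. The log2 fold change, KO over WT, was positive for 44 and negative for 10 genes, from -0.22 (Pttg1) to 0.61 (Kif23), with SEs of 0.19 to 0.39, and 31 genes were within 1 SE of 0. The median was 0.19, against 0.00 over all genes tested, of which 49.6% were positive. All 7 cytokinesis genes (median 0.42), all 7 CDK1-cyclin genes (median 0.08) and all 4 chromosomal passenger genes (median 0.17) were positive. All 4 APC/C and separase genes were negative (median -0.06), each within 1 SE of 0. The cytokinesis sum was lowest in WT BM 1, at 844.4 CPM against 1524.4 to 2157.7 CPM in the other BM samples. Without WT BM 1 the median of the 54 was 0.11.

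By same-numbered samples 15 genes were higher in KO in all 3 comparisons, 30 in 2, 9 in 1 and 0 in none. The median log2 difference was 0.13 for number 1, 0.29 for number 2 and 0.05 for number 3, with 32, 50 and 32 genes higher in KO. The 5 genes with the largest fold changes of the same sign in all 3 comparisons were Kif23, Ect2, Bub1, Cdc25b and Nusap1.

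Kif23 was at 130.7, 233.0 and 306.0 CPM in WT and 278.1, 399.3 and 347.0 CPM in KO BM (log2 fold change 0.61 ± 0.31, SE; adjusted p = 0.861, edgeR). WT BM 3 was above KO BM 1, so the groups overlapped. Ect2 was at 48.0, 120.4 and 143.7 CPM in WT and 136.1, 167.9 and 159.5 CPM in KO (0.57 ± 0.36). Bub1 (0.56 ± 0.33, on the values given above) was the one gene of the 54 with every KO sample above every WT sample. Cdc25b was at 74.8, 122.0 and 136.9 CPM in WT and 119.7, 204.3 and 142.9 CPM in KO (0.48 ± 0.30). Nusap1, a spindle microtubule bundler, was at 168.9, 261.5 and 297.0 CPM in WT and 261.7, 350.4 and 399.7 CPM in KO (0.47 ± 0.27). The adjusted p was 0.861 for all 5, and in all 5 the lowest sample was WT BM 1. Without that sample the log2 fold changes were 0.35 for Kif23, 0.23 for Ect2, 0.25 for Bub1, 0.27 for Cdc25b and 0.28 for Nusap1. Over all genes tested 4.79% had every KO sample above every WT sample and 4.75% every KO sample below, against 1 and 0 of the 54.

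WT BM 1 was below the mean of the other BM samples for 36 of the 54 genes (median log2 difference -0.27), and for the 27 with the longer transcripts (5158 to 15433 bases of summed exons) by a median of -0.50, against -0.07 for the 27 shorter. The median KO over WT log2 fold change was 0.22 for the longer and 0.15 for the shorter genes, and 0.11 for each without that sample. Sums of other markers also differed between BM samples. The pre-cDC markers stood at 4755.5, 4941.5 and 6704.6 CPM in WT and 5445.7, 7640.2 and 6776.4 CPM in KO, with the lowest in WT BM 1 and the highest in KO BM 2, as for the mitotic sum. Klf1, the erythroid transcription factor, had 5625, 4153 and 2722 counts in WT and 3835, 233 and 833 in KO, and Mpo had 28235, 24736 and 17398 in WT and 46964, 23665 and 13857 in KO. The part of these values in the small differences was not tested.

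**Figure D5:**
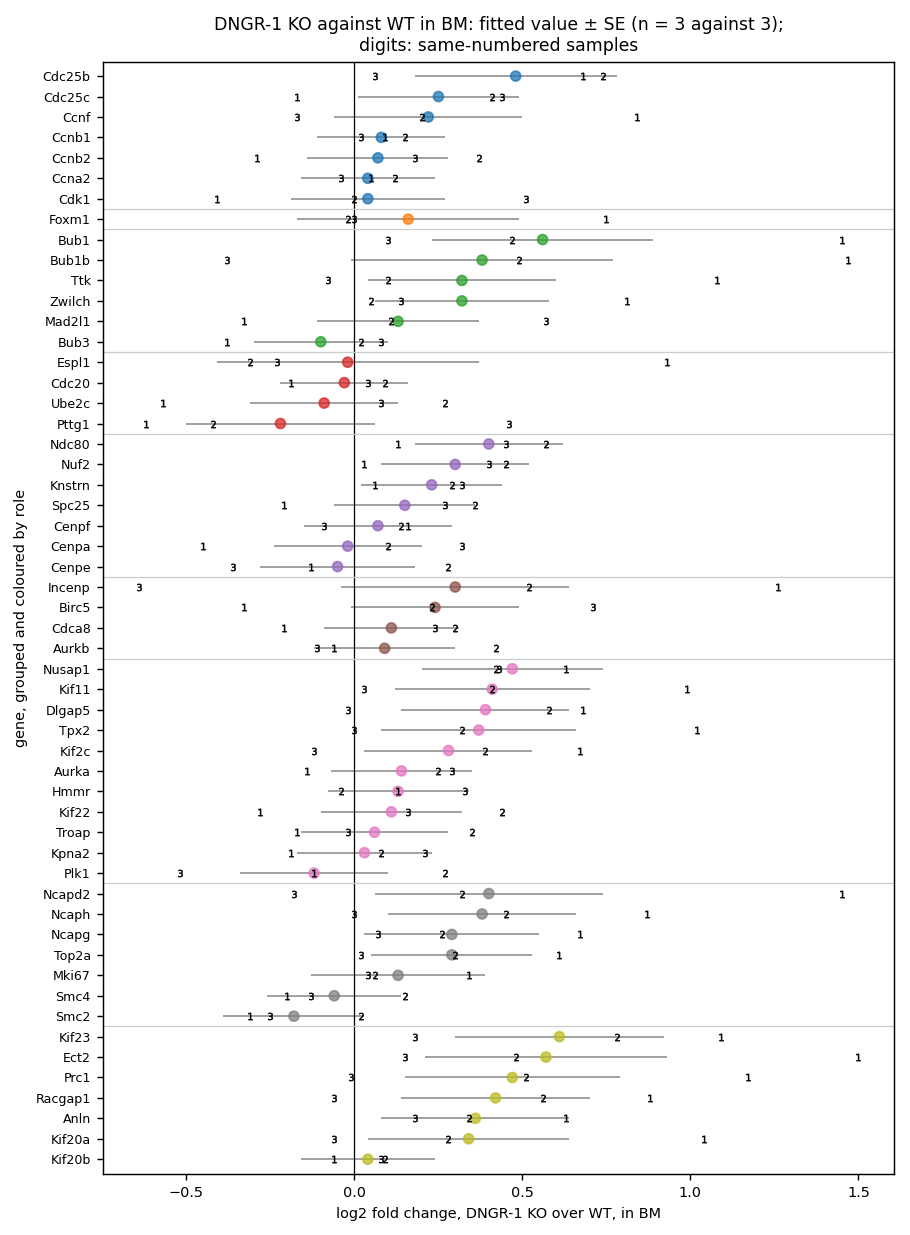
Log2 fold change of each of the 54 genes, KO over WT, in BM: points with bars are fitted values ± SE (n = 3 against 3), coloured and grouped by role, and digits are the differences of same-numbered samples. Of the points 44 lie to the right of 0, and none passed the test.

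In spleen there was 1 WT sample, so the genotypes have no replicate check and no p-value. Taking counts of 3 or fewer as 3, both KO samples were over 2-fold above the WT sample for 7 of the 54 genes and over 2-fold below it for 6, against 14.6% and 7.73% of the 13468 genes. The 7 and 6 of 54 are near those shares, so nothing is read from them about the list. On the scale given above, the KO spleen samples were themselves over 2-fold apart for 28 of the 54 genes (51.9%). For a difference over 1 in the authors' VST values, both KO samples were above the WT sample for 1 gene and below it for 2. Higher in both KO samples were Ccna2, Cdk1, Cenpa, Dlgap5, Top2a, Prc1 and Anln. Cdk1 had 3 counts in WT and 240 in each KO sample. Prc1, a midzone microtubule bundler, had 0 in WT and 204 and 244 in KO, at least 64.1-fold and 57.9-fold more. Anln (anillin) had 0, 76 and 109 counts, Dlgap5 0, 186 and 96, and Ccna2 0, 41 and 16. In 5 of these 7 the WT count was at or under the floor, as it was for 49.9% of all genes that were higher in both KO samples.

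Lower in both KO samples were Cenpe, Aurkb, Kif11, Kif2c, Hmmr and Ncapg. Hmmr, a spindle assembly protein, had 150 counts in WT, 1 in KO 1 and 3 in KO 2. Ncapg had 207, 0 and 7, Kif2c 334, 13 and 3, and Cenpe 467, 27 and 3. Aurkb had 864, 333 and 236 counts, and Kif11 497, 177 and 6. Within condensin, Ncapg was lower in both KO samples, while Smc4 had 1741, 2814 and 7147 counts and Ncaph 113, 179 and 278.

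An interaction term of tissue and genotype passed for 11 of the 54 genes (20.4%) and for 8.85% of all genes, in a fit where the spread of the WT spleen group, with 1 sample, could not be measured. In 5 of the 11 the WT spleen count was at or under the floor. Without KO spleen 1 or KO spleen 2 the number of genes passing rose, over the list and over all genes. In 6 (Ccna2, Cdk1, Cenpa, Dlgap5, Prc1 and Anln) KO minus WT was greater in spleen, and in 5 (Cenpe, Aurkb, Kif2c, Hmmr and Ncapg) smaller. Each of these values rests on the 1 WT spleen sample, taken by the model to vary like the other groups, so they do not show a difference between genotypes. With at least 10 counts required in every sample 0 of the 23 genes left passed by edgeR, with 4 at an unadjusted p under 0.05.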

How the data were processed

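Bulk RNA-seq of pre-cDCs was analysed in 9 samples, grouped by the tissue and genotype of their labels. The authors deposited expected counts per gene (not normalized, 51912 genes, 25.6% of nonzero values not whole) and log2-scale values of 20810 genes after a variance stabilizing transformation, with a lowest value of 8.43, which served for 1 alternative. Per the labels' processing notes, Trimmomatic 0.36, STAR 2.5.2, RSEM 1.3.0, DESeq2 1.18.1, R 3.4.3 and GRCm38 were named. Libraries were total RNA after removal of ribosomal RNA. The study regressed out a score of chromosome 1 genes, which was an alternative here.

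Symbols and coordinates came from GENCODE M21 (GRCm38), with 51719 of 51912 identifiers matched, and promoters from RefSeq (GRCm38.p6). Counts were rounded and tested with edgeR 4.0.16 under R 4.3.3 (filterByExpr by genotype in BM and by tissue otherwise, TMM factors, quasi-likelihood test, Benjamini-Hochberg over all genes tested, threshold 0.05). Alternatives were DESeq2 1.42.0, voom of limma 3.58.1, other size factors, filters, the replicate block, a 4-group fit and each sample left out in turn. SEs were derived from the F statistic. The scripts were tested on simulated counts. No replicates were near-identical (chi-square per gene 28.9 to 256.8). Depth of 17103832 to 23722311 counts puts the 3-count floor at 0.127 to 0.18 CPM. All 54 genes may be named. Per-sample values were set for the gene of highest BM CPM in each role, the most and least negative between tissues, the 5 largest same-sign differences in BM and those past 2-fold in spleen, and list genes are the lowest and highest of each list; other values were chosen after they were seen. The genes and lists were chosen with earlier results of these data known.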

Additional observations from a re-analysis of the deposited data

Results flagged for a closer look

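For 11 of the 54 genes the interaction term of tissue and genotype passed (edgeR, adjusted over 13468 genes). With 1 WT spleen sample the spread of that group was not measured but assumed equal to that of the others, so these values compare that library with the rest and do not show that the genotypes differ between the tissues. Given as the spleen difference less the BM difference on the log2 scale, the positive values were 7.8 for Ccna2, 5.95 for Cdk1, 1.94 for Cenpa, 9.76 for Dlgap5, 10.27 for Prc1 and 9.09 for Anln. The negative values were -5.1 for Cenpe, -1.93 for Aurkb, -5.87 for Kif2c, -6.59 for Hmmr and -6.47 for Ncapg. In 5 of the 11 the WT spleen count was at or under 3, and in Hmmr both KO spleen counts were, so the sizes of these fitted values depend on the prior count and are no bounds. In 3 of the 11 the KO spleen samples were themselves over 2-fold apart. At an unadjusted p under 0.05 there were 21 of the 54, with no share over all genes counted beside it, so nothing is read from that number. No group held 4 or more samples, so single samples were not tested for distance from their group.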

How the results depend on the processing

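In BM 0 of the 54 genes passed under any alternative, with 0 to 8 at an unadjusted p under 0.05 (8 with the chromosome 1 score as a covariate), and the median log2 fold change stayed positive, from 0.11 without WT BM 1 to 0.26 without KO BM 1. Between tissues, where the list was chosen from the contrast and the counts are a description that supports nothing, 45 to 51 of 54 passed when single samples were left out (median -4.93 to -4.70), and 49 to 54 under other tools, size factors and no filter; limma-voom gave a median of -6.24. With at least 10 counts in every sample 23 genes were left, 23 passed, and the median was -3.90. The interaction count of 11 became 20 with DESeq2, 0 of 23 with at least 10 counts in every sample, and 8 to 25 without single samples: 24 without KO spleen 1 and 25 without KO spleen 2, fits in which each spleen group is 1 sample. The count of 13 genes past 2-fold in spleen was 3 of the 54 (1 higher and 2 lower) for a difference over 1 in VST values, and 27 or 28 of the 54 when 1 KO sample was compared with the WT sample. The cause of these changes was not tested, apart from the smaller number of genes or samples. For the spleen alternatives no share over all genes was counted, so nothing is read from them about the list. Same-numbered samples correlated by 0.103, 0.099 and -0.082 in their deviations, not every sample correlated best with its own number, and the numbers were not taken to pair the samples. With the replicate block 0 of 54 passed in BM (median 0.21) and 45 of 54 between tissues (median -5.41), while over all genes the block moved the tissue count from 2631 to 1246. Of the fits of single named genes, 70 of 70 in BM kept direction and, with no pass in any, their side of the threshold, though without WT BM 1 the 5 values were 0.23 to 0.35, and in tissue 158 did while 4 of Foxm1 came to pass. By counting error alone, 3 counts in a spleen sample stand for 0.127 to 0.179 CPM. The KO spleen samples differed by more than counting error, with 51.9% of the list over 2-fold apart. A count at or under the floor in 1 spleen sample therefore does not fix the level of that gene.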
